A study of Saccharomyces cerevisiae S288C with 71 samples.

Results

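The mitochondrial protein import machinery of budding yeast (Saccharomyces cerevisiae S288C) was examined through 33 of its genes, taken by symbol from a table of 5803 genes and grouped by where their products act. They are 8 genes of the outer membrane entry gate (the TOM complex: TOM5, TOM6, TOM7, TOM20, TOM22, TOM40, TOM70 and TOM71), 5 small TIM chaperones (TIM8, TIM9, TIM10, TIM12 and TIM13), 3 subunits of the TIM22 carrier translocase (TIM22, TIM54 and TIM18), 4 of the TIM23 presequence translocase (TIM17, TIM21, TIM23 and TIM50), 6 of the import motor (TIM44, PAM16, PAM17, PAM18, SSC1 and MGE1), 3 of the SAM complex (SAM35, SAM37 and SAM50), 2 of the disulfide relay (MIA40 and ERV1) and 2 of the matrix chaperonin (HSP60 and HSP10). All 33 were in the table and all 33 passed the filter on low values, which kept 5766 genes. Poly(A) RNA was sequenced in 71 libraries from 12 strains at 3 times.

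The strains were 6 double deletions (coq2d ras2d, coq2d rts1d, coq2d tco89d, cox4d ras2d, cox4d rts1d and cox4d tco89d), 2 electron transport chain (ETC) deletions (coq2d and cox4d), 3 deletions that suppress the death of ETC mutants on starvation (ras2d, rts1d and tco89d), and wild type (wt). COQ2 encodes an enzyme of ubiquinone synthesis and COX4 a subunit of cytochrome c oxidase. RAS2 encodes a GTPase upstream of protein kinase A, RTS1 a subunit that directs the phosphatase PP2A to its targets, and TCO89 a subunit of the TORC1 kinase complex. All strains grew in flasks of minimal medium with ammonium and glucose, and cells were filtered at 0 h (log phase), 12 h and 16 h, a span that crosses the wt diauxic shift, the switch from glucose fermentation to respiration. There were 2 libraries for each strain and time, except 1 for cox4d rts1d at 16 h; the libraries of a pair are called a and b here, names that do not pair them across groups. The labels call the libraries technical replicates, and whether more than 1 clone of a deletion was used is not given in the sources used here, so p-values measure only the spread between these libraries.

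Nearly all mitochondrial proteins are made in the cytosol and imported. Precursors bind receptors of the TOM complex and cross its TOM40 pore, and then follow separate routes: presequence proteins go through TIM23 with the pull of the SSC1 motor, metabolite carriers are handed by the small TIM chaperones to TIM22, outer membrane barrels are inserted by SAM, and cysteine-rich proteins of the intermembrane space, the small TIMs among them, are trapped by MIA40 and ERV1. The HSP60 and HSP10 chaperonin folds proteins once they reach the matrix. Yeast makes more mitochondrial protein when glucose runs out and cells turn to respiration, and the membrane potential made by the electron transport chain helps drive import across the inner membrane.

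Among the 33 genes a heat shock element was found before HSP10 and HSP60 alone, and a Puf3 element after most of the genes. The heat shock element, bound by the transcription factor Hsf1, was searched as GAANNTTCNNGAA on both strands in the 400 bases before each start codon (RefSeq R64, the sacCer3 genome). It was found at 2 of the 33 genes, HSP10 and HSP60 (6.06%), against 73 of 6021 protein-coding genes (1.21%). The 2 matches are shown with 30 bases on each side, with the match in capitals, at chrXV:370962-371034 (minus strand) for HSP10 and chrXII:665170-665242 (minus strand) for HSP60.
HSP10: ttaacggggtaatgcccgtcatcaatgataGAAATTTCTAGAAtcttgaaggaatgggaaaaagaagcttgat
HSP60: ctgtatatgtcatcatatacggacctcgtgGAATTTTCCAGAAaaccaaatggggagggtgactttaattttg

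The element bound by Puf3, an RNA-binding protein that acts on messenger RNAs of mitochondrial proteins, was searched as TGTANATA on the coding strand in the 200 bases after each stop codon. It was found at 23 of the 33 import genes (69.7%), against 844 of 6021 protein-coding genes (14.02%). All 5 small TIM genes, all 3 TIM22 genes and both genes of the relay and of the chaperonin held a match, as did 5 of 8 TOM, 2 of 4 TIM23 and 4 of 6 motor genes, and 0 of 3 SAM genes. The windows searched for the 2 elements lie on opposite ends of a gene and do not overlap. Matches are shown with 10 bases on each side for 8 of the 10 import genes lower in coq2d at 16 h, the result on which most of what follows turns, and for the 2 chaperonin genes, which had the opposite sign there. They lie at chrV:117522-117549 (plus strand) for TIM9, chrVIII:115499-115526 (minus strand) for TIM10, chrII:427108-427135 (minus strand) for TIM12, chrVII:858639-858666 (plus strand) for TIM13, chrXII:165417-165444 (minus strand) for PAM18, chrXI:77078-77105 (plus strand) for MIA40, chrVII:544259-544286 (plus strand) for ERV1, chrVII:644634-644661 (plus strand) for TOM20, chrXV:370452-370479 (minus strand) for HSP10 and chrXII:663208-663235 (minus strand) for HSP60.
TIM9: atttttagcaTGTAAATAtaaagagaaa
TIM10: attcatatccTGTATATAcaagtaacat
TIM12: ctgtgctgttTGTATATAatagtaacct
TIM13: tactcgtactTGTATATAagattcaaag
PAM18: agataagtctTGTAAATAacacggaaag
MIA40: ggatgatacaTGTAAATAcagtaatatt
ERV1: cagattctcgTGTATATAacactccaat
TOM20: tcttttactcTGTATATAgccctatata
HSP10: tgtatgtaccTGTAAATAggccattatg
HSP60: tttattatctTGTAAATAcaatgtgaaa

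The other 2 genes of those 10, PAM16 and TIM50, held no match in this window. TIM12, TIM13 and TOM20 held 2 matches each, and the other match of each is not shown. Among the 23 import genes not called lower in coq2d at 16 h, 15 held the Puf3 element, against 8 of the 10 called lower, so the element was common on both sides. A match describes letters in the genome and is not a measured binding site.

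The libraries followed their labels: the deleted gene was lower in every library of its deletion strains than in any other library. COQ2, a weak transcript, had 0.1 to 2.95 TPM (transcripts per 1000000 transcripts of the library, corrected for gene length) in 24 coq2d libraries, against 5.55 to 60.2 TPM in 47 others. COX4 had 0.115 to 72.3 TPM in 23 cox4d libraries, the highest being library a of cox4d tco89d at 16 h, against 283 to 3463 TPM in 48 others. The paired libraries of a group correlated at 0.986 to 0.998 on the log2 scale over all genes, and 0 of 1155 pairs of values of an import gene differed by 2-fold, the widest being 1.73-fold. None of the 33 genes had a near-identical copy elsewhere in the genome, at 95% identity over 80% of its length, and none overlapped another annotated gene. TPM are shares of one library, so a few strong transcripts lower all others: CUP1-1, a metallothionein gene, held 18.6% of the coq2d total at 16 h and 19.98% of the cox4d total, against 5.72% in wt.

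In wt the 33 genes together held 0.629% of all TPM at 0 h, 0.745% at 12 h and 0.754% at 16 h, and HSP10 was the highest of them at every time. Between 0 and 16 h the wt mean of HSP10 rose from 944.5 to 2418 TPM, by more than the sum of all 33, from 6292 to 7542 TPM. The larger share therefore does not describe the 33 genes as a group. At 0 h the most abundant transcripts after HSP10, at 934 and 955 TPM, were TIM10 at 579.9 and 503 TPM and TOM5 at 486 and 540.5 TPM. Over all 71 libraries the lowest value of any member was 7.33 TPM, for TOM71 in 1 cox4d tco89d library at 16 h, and the highest was 4387 TPM, for HSP10 in 1 coq2d library at 12 h. PAM18, the J-protein that starts the ATP cycle of the motor, had the widest range of the 33, 12.1-fold between its extreme libraries. The sum of all 33 ranged more narrowly between groups, from 4014 TPM in cox4d rts1d at 12 h to 7974 TPM in coq2d at 12 h. HSP10 made up 1182 and 3970 TPM of these sums.

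**Figure D1:**
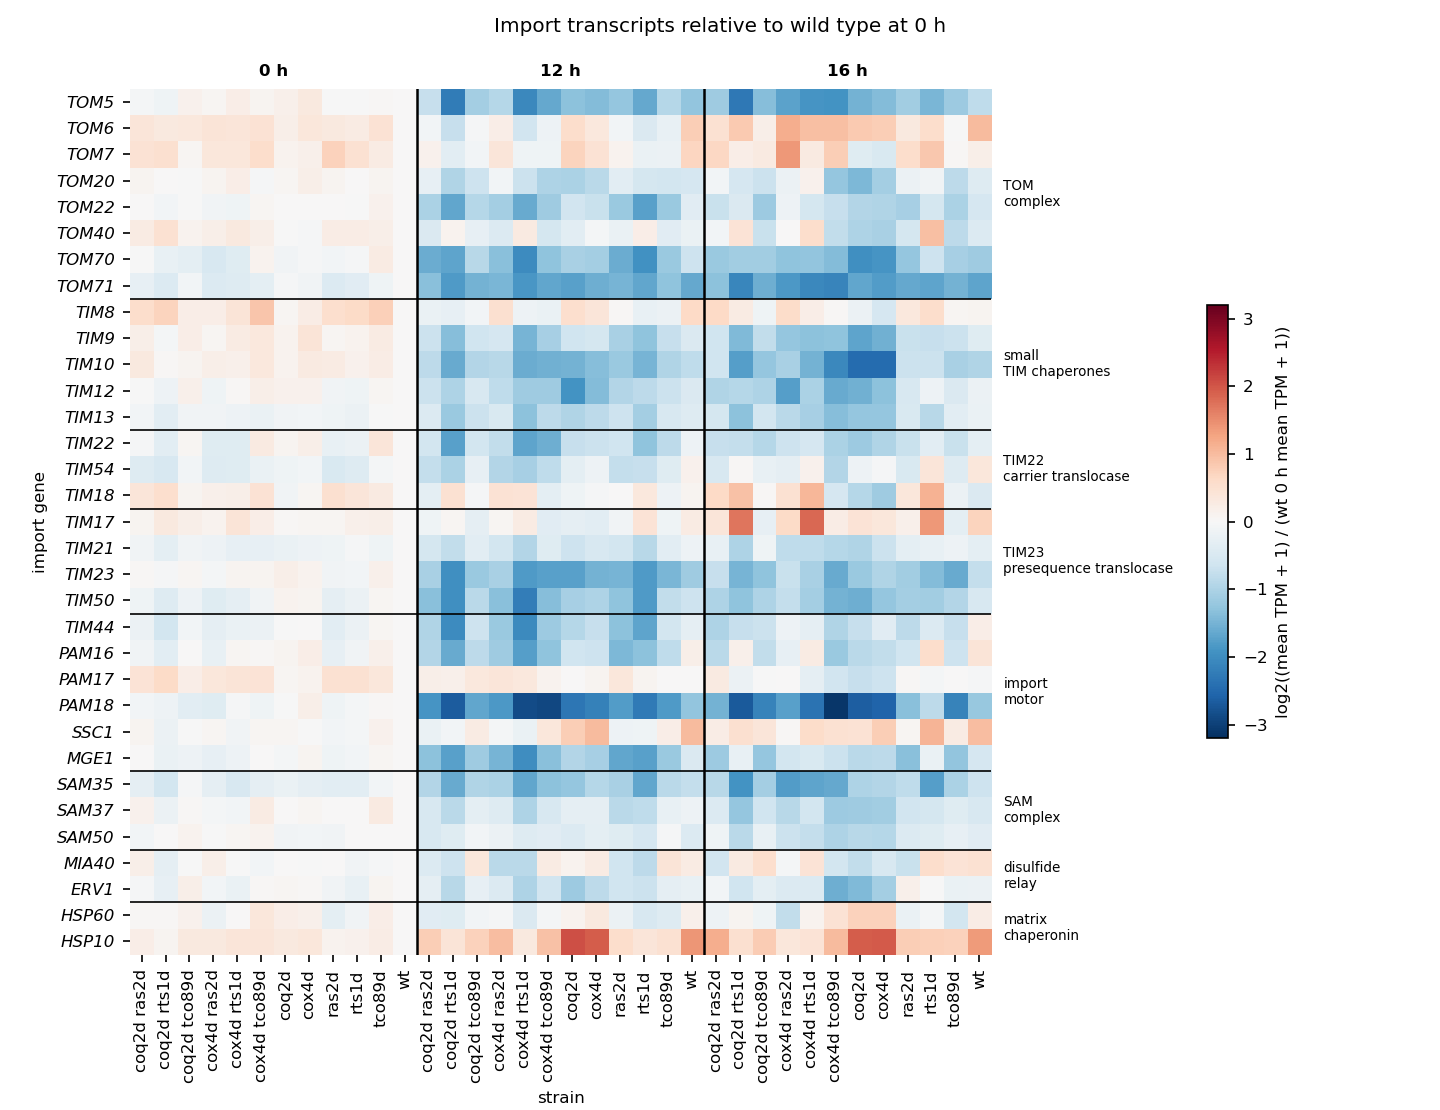
Rows are the 33 import genes in their role groups and columns are the 12 strains at 0, 12 and 16 h, coloured by the log2 ratio of each group's mean TPM + 1 to the wt mean TPM + 1 at 0 h. Colours are pale at 0 h; at 12 and 16 h PAM18, TOM71, TOM5 and TIM10 are blue in most strains, and HSP10 is red, darkest in coq2d and cox4d.

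Across the wt diauxic shift the import genes did not move as a block. By limma on log2(TPM + 1), with a call at a Benjamini-Hochberg adjusted p under 0.05 over all genes and a change of at least 2-fold, 5 of 33 changed between 0 and 16 h (15.2%), against 46.5% of all genes tested: HSP10 and TOM6 rose, and TOM71, PAM18 and TOM70 fell. That is 1 higher and 2 lower of the 8 TOM genes, 1 lower of the 6 motor genes, 1 higher of the 2 chaperonin genes and none of the genes of the small TIMs, TIM22, TIM23, SAM and the relay. The median log2 change of the 33 was -0.31, against -0.24 over all genes. In bulk RNA from a culture, less RNA in each cell and fewer cells that carry it cannot be told apart.

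HSP10, the lid of the HSP60 folding chamber, had 2304 and 2532 TPM at 16 h, against 934 and 955 TPM at 0 h (log2 change ± standard error 1.35 ± 0.09, adjusted p = 3.53e-17). TOM71, a stress-linked paralog of the TOM70 receptor, had 14.01 and 12.8 TPM at 16 h, against 46.7 and 43.6 TPM at 0 h (-1.68 ± 0.14, adjusted p = 5.44e-15). TOM70, the receptor for carrier precursors, had 31.9 and 31.9 TPM at 16 h, against 82.5 and 60.9 TPM at 0 h (-1.13 ± 0.14, adjusted p = 1.14e-09). The libraries of the 2 times did not overlap for any of these 3 genes, but the TOM70 libraries at 0 h were far apart. TOM6, a small subunit that steadies the TOM complex, had 622 and 693 TPM at 16 h, against 315 and 333 TPM at 0 h (1.02 ± 0.10, adjusted p = 1.63e-12). PAM18 had 46.6 and 50.2 TPM at 16 h, against 121 and 107 TPM at 0 h (-1.22 ± 0.12, adjusted p = 1.78e-12). Without library a of wt at 0 h, 3 genes were called, and TOM70 (-0.91) and TOM6 (0.98) fell short of 2-fold; TOM6 also did without library b at 16 h (0.94). With median-ratio scaling in place of the deposited TPM scale, 4 genes were called higher (HSP10, TOM6, SSC1 and TIM17) and 1 lower (TOM71); that scale lies 0.30 above the deposited one here, in log2 units.

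In the remaining role groups the member with the largest change stayed short of 2-fold. TIM10, partner of TIM9 in the chaperone that ferries carriers across the intermembrane space, had 267 and 291 TPM at 16 h, against 579.9 and 503 TPM at 0 h (log2 change -0.95 ± 0.12, adjusted p = 9.78e-10). Without library b at 0 h or library b at 16 h it passed the threshold, at -1.05 and -1.01. TIM23, which lines the presequence channel, had 131 and 132 TPM at 16 h, against 219 and 228 TPM at 0 h (-0.76 ± 0.17, adjusted p = 7.88e-05). SAM35, a receptor of barrel precursors, had 44.7 and 46.4 TPM at 16 h, against 72.9 and 72.3 TPM at 0 h (-0.66 ± 0.10, adjusted p = 1.55e-07). TIM18, a subunit of the carrier translocase, had 27.1 and 26.7 TPM at 16 h, against 41.1 and 33.4 TPM at 0 h (-0.45 ± 0.16, adjusted p = 0.0125). These all had lower values at 16 h with no overlap between times, while MIA40, the receptor of the relay, had higher values at 16 h, with 129 and 129 TPM then, against 88.5 and 93.7 TPM at 0 h (0.50 ± 0.10, adjusted p = 2.25e-05). At 12 h, 6 of the 33 were called against 0 h, where 45.4% of all genes were: TOM71 (-1.65), TOM5 (-1.27), PAM18 (-1.25) and TIM23 (-1.13) fell, and HSP10 (1.41) and SSC1 (1.01), the matrix Hsp70 at the heart of the motor, rose. SSC1 fell short of 2-fold without library b at 0 h (0.99) or library b at 12 h (0.94), and TIM23 without library a at 12 h (-0.99). With median-ratio scaling TOM71 and TOM5 were called lower and TOM6, SSC1 and HSP10 higher.

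At 16 h 7 import genes were called lower in both coq2d and cox4d on the deposited scale: the small TIMs TIM9, TIM10, TIM12 and TIM13, the relay receptor MIA40 and the motor pair PAM16 and PAM18; with median-ratio scaling TIM10 and PAM18 alone of these were called in either strain. In coq2d 10 of 33 import genes fell and 0 rose (30.3%), against 12.3% of all genes lower. In cox4d 7 fell and 0 rose (21.2%), against 9.52% of all genes lower. Both comparisons use the same wt libraries. In coq2d these were 4 of 5 small TIMs (TIM9, TIM10, TIM12 and TIM13), both relay genes (MIA40 and ERV1), 2 of 6 motor genes (PAM16 and PAM18), 1 of 4 TIM23 genes (TIM50) and 1 of 8 TOM genes (TOM20). In cox4d they were the 4 small TIMs TIM9, TIM10, TIM12 and TIM13, with MIA40, PAM16 and PAM18. None of the 3 TIM22 genes, 3 SAM genes or 2 chaperonin genes was called in either strain. The median log2 change of the 33 was -0.62 in coq2d, where all genes had -0.39, and -0.60 in cox4d, where all genes had -0.31.

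TIM10 had 98.3 and 95.2 TPM in coq2d and 96.7 and 97.6 TPM in cox4d, against 267 and 291 TPM in wt. The 4 mutant libraries lay within a few TPM of each other, well under both wt libraries. The log2 change was -1.52 ± 0.12, adjusted p = 1.77e-14 in coq2d, and -1.51 ± 0.12, adjusted p = 2.37e-14 in cox4d. PAM18 had 17.6 and 17.7 TPM in coq2d and 20.1 and 16.8 TPM in cox4d, against 46.6 and 50.2 TPM in wt. Again no mutant library reached a wt library. The change was -1.41 ± 0.12, adjusted p = 2.08e-13 in coq2d, and -1.35 ± 0.12, adjusted p = 8.88e-13 in cox4d.

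TIM9, the partner of TIM10, had 117 and 86.2 TPM in coq2d and 105 and 119.6 TPM in cox4d, against 232 and 268 TPM in wt (log2 change -1.30 ± 0.13, adjusted p = 9.28e-12 in coq2d, and -1.15 ± 0.13, adjusted p = 3.11e-10 in cox4d). TIM12, which docks the chaperone on the carrier translocase, had 21.0 and 19.2 TPM in coq2d and 28.3 and 18.6 TPM in cox4d, against 51.1 and 53.6 TPM in wt (-1.34 ± 0.17, adjusted p = 8.63e-09 in coq2d, and -1.16 ± 0.17, adjusted p = 2.33e-07 in cox4d). Mutant and wt libraries did not overlap for either gene, but the cox4d libraries were far apart for TIM12: without library b, at 18.6 TPM, its change was -0.87, short of 2-fold. MIA40 had 53.2 and 51.9 TPM in coq2d and 59.1 and 67.6 TPM in cox4d, against 129 and 129 TPM in wt (-1.28 ± 0.10, adjusted p = 2.87e-14 in coq2d, and -1.02 ± 0.10, adjusted p = 2.07e-11 in cox4d). PAM16, the partner that holds PAM18 at the channel, had 71.5 and 63.0 TPM in coq2d and 66.7 and 74.6 TPM in cox4d, against 167 and 157 TPM in wt (-1.26 ± 0.11, adjusted p = 6.96e-13 in coq2d, and -1.19 ± 0.11, adjusted p = 4.40e-12 in cox4d). Every mutant library of MIA40 and PAM16 was under both wt libraries, but in cox4d MIA40 missed the 2-fold minimum without library a (-0.92).

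The other calls in coq2d were of ERV1, the oxidase that recharges MIA40 (-1.23 ± 0.11, adjusted p = 4.77e-13), TIM50, the presequence receptor of the inner membrane (-1.06 ± 0.11, adjusted p = 6.63e-11), TOM20, the presequence receptor of the outer membrane (-1.04 ± 0.10, adjusted p = 5.69e-12), and TIM13, which works with TIM8 (-1.02 ± 0.12, adjusted p = 1.94e-09). In cox4d TIM13 had -1.03 ± 0.12, adjusted p = 1.87e-09, and ERV1, TIM50 and TOM20 had -0.89, -0.73 and -0.69, under 2-fold. ERV1 passed it in cox4d without library b (-1.05). The TIM13 calls were lost in both strains without library b of wt (-0.88 in coq2d and -0.89 in cox4d), and also without library b of coq2d (-0.97) or library a of cox4d (-0.98). The TOM20 call was lost without library b of coq2d (-0.97), and TIM22 was called without library a of coq2d (-1.04). Summed over the 5 small TIMs, the level was 388 ± 35.1 TPM in coq2d and 383 ± 15.7 TPM in cox4d, against 854 ± 79.0 TPM in wt (SD, n = 2 each).

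**Figure D2:**
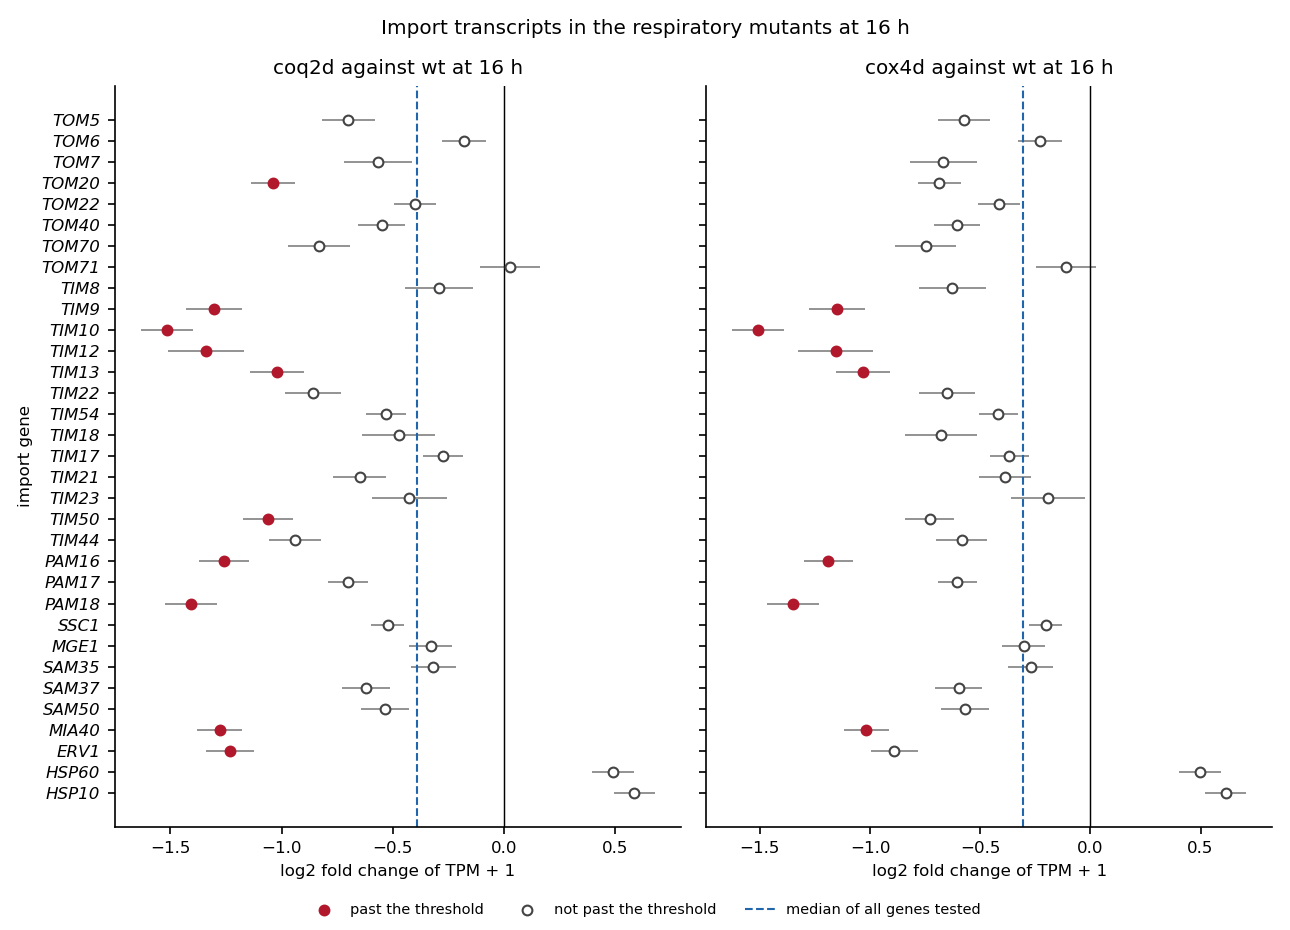
Points are the log2 fold change of TPM + 1 of each import gene at 16 h in coq2d (left) and cox4d (right) against wt, bars are standard errors of the fit, and filled points passed the threshold. The 10 filled points in coq2d and 7 in cox4d lie left of the median of all genes (dashed line), and HSP60 and HSP10 lie right of 0 in both.

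The size of these changes depends on the scale. The deposited scale lies 0.42 on the log2 scale below median-ratio scaling in coq2d against wt and 0.31 below it in cox4d against wt, beside the larger CUP1-1 share of both strains; what part CUP1-1 has in this was not tested. With median-ratio scaling 2 import genes were called lower in each strain and 1, HSP10, higher in coq2d: the genes called lower were TIM10 (-1.10 in coq2d and -1.20 in cox4d) and PAM18 (-1.003 and -1.06). On that scale 3.31% of all genes were called lower and 5.32% higher in coq2d, and 3.62% lower and 4.99% higher in cox4d. TIM9, TIM12, TIM13, MIA40 and PAM16 kept negative changes on that scale, between -0.93 and -0.60 in coq2d and between -0.88 and -0.71 in cox4d, under 2-fold. There, 24 of the 33 genes were below 0 in coq2d and 25 in cox4d, whereas on the deposited scale 30 and 31 were. These counts have unlike baselines: the median of all genes was -0.001 in coq2d and -0.02 in cox4d on the median-ratio scale, against -0.39 and -0.31 on the deposited one. The median of the 33 on the median-ratio scale was -0.22 in coq2d and -0.30 in cox4d. By adjusted p alone, without the 2-fold minimum, 28 import genes were lower and 2 higher in coq2d, where 55.1% of all genes were lower; 29 were lower and 2 higher in cox4d, where 49.6% of all genes were.

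The matrix chaperonin had the opposite sign to most import genes in coq2d and cox4d. HSP10 had 3678 and 3585 TPM in coq2d and 3631 and 3767 TPM in cox4d, against 2304 and 2532 TPM in wt at 16 h. HSP60, the chamber itself, had 448 and 443 TPM in coq2d and 491 and 409 TPM in cox4d, against 328 and 307 TPM in wt. Every mutant library was above both wt libraries for both genes, but the changes were under 2-fold: 0.59 ± 0.09, adjusted p = 6.68e-07 and 0.61 ± 0.09, adjusted p = 3.42e-07 for HSP10, and 0.49 ± 0.09, adjusted p = 1.93e-05 and 0.50 ± 0.09, adjusted p = 1.72e-05 for HSP60, in coq2d and cox4d in that order. With median-ratio scaling HSP10 passed the threshold in coq2d (1.01) and missed it in cox4d (0.92).

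HSP10 moved more than HSP60 over the time course. In coq2d HSP10 had 1159 and 1180 TPM at 0 h, 3554 and 4387 TPM at 12 h and 3678 and 3585 TPM at 16 h. In wt it had 934 and 955 TPM at 0 h, 2535 and 2503 TPM at 12 h and 2304 and 2532 TPM at 16 h. Every coq2d library was above both wt libraries of its time, by the smallest margin at 0 h. The ratio of HSP10 to HSP60 in TPM was 3.73 ± 0.0827 at 0 h, 13.8 ± 2.49 at 12 h and 8.15 ± 0.0834 at 16 h in coq2d, 4.08 ± 0.0856, 10.8 ± 0.785 and 8.30 ± 1.28 in cox4d, and 3.52 ± 0.0856, 8.43 ± 0.747 and 7.64 ± 0.868 in wt at the same times (mean ± SD, n = 2 each). A ratio within a library shows that the 2 genes changed unequally, and scaling does not enter it.

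**Figure D3:**
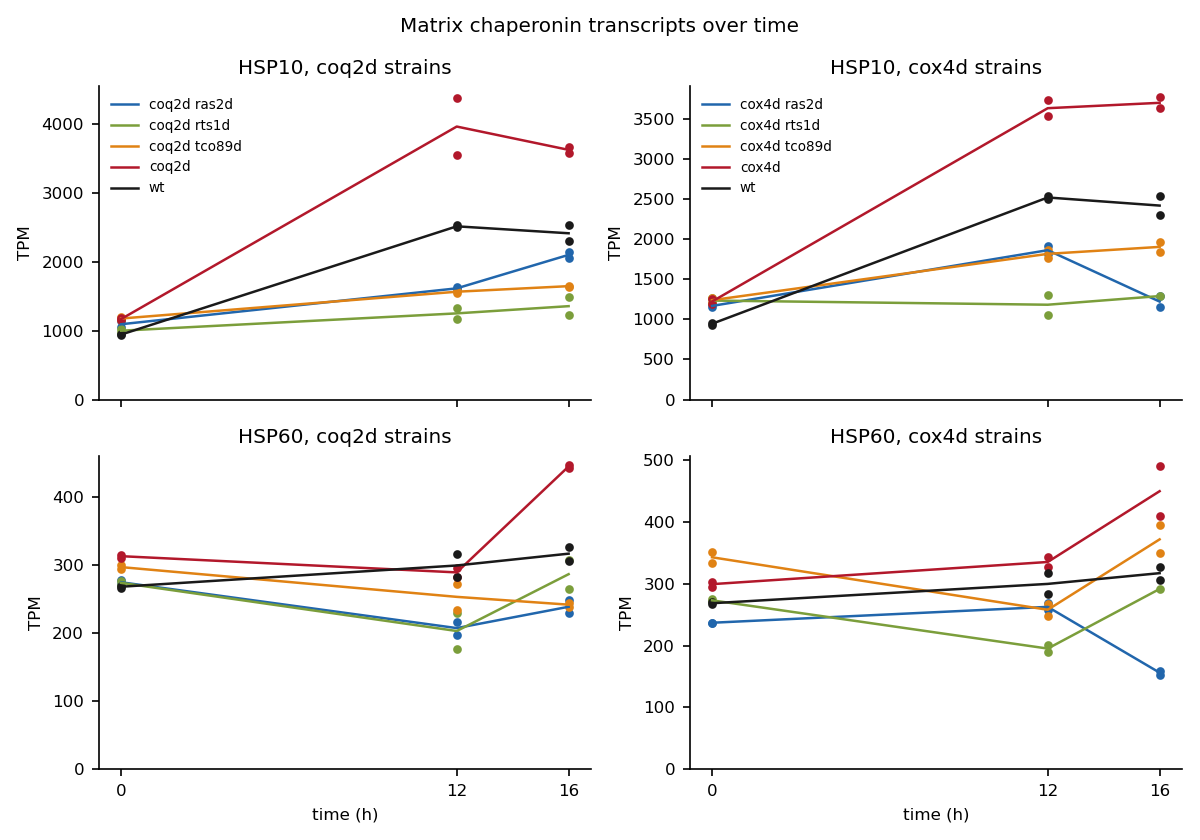
Lines join the mean TPM of HSP10 (top) and HSP60 (bottom) at 0, 12 and 16 h, with each library as a point, for coq2d and its double mutants (left), cox4d and its double mutants (right) and wt in all panels. HSP10 in coq2d and cox4d lies above wt at 12 and 16 h, between 3535 and 4387 TPM, and the double mutants lie below wt at those times.

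The mutants differed little from wt in log phase. At 0 h limma called 0 of 33 import genes in coq2d against wt, where 0.277% of all genes were called, and 0 in cox4d, where 0.832% were. An unadjusted p under 0.05 was reached by 3 and 6 import genes, and by 508 and 1072 of all 5766 genes tested. At 12 h TIM12 and PAM18 fell in coq2d (-1.46 ± 0.17, adjusted p = 4.01e-09 for TIM12, and -1.04 ± 0.12, adjusted p = 1.83e-09 for PAM18), against 4.37% of all genes lower. PAM18 missed the 2-fold minimum without library a of coq2d (-0.99), and median-ratio scaling called TIM12 alone. In cox4d at 12 h limma called 0 import genes, against 3.26% of all genes, and 1 was called lower without library a of cox4d. There 19 import genes had an unadjusted p under 0.05, as did 2786 of all 5766 genes. Set directly against cox4d at 16 h, coq2d had 0 import genes called, where 0.364% of all genes were, and 8 at an unadjusted p under 0.05, beside 1176 of all 5766 genes. The median log2 difference of the import genes was -0.06 (0.05 with median-ratio scaling) and the 33 ranged between -0.36 and 0.34.

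The change between 0 and 16 h itself differed between mutant and wt for 9 import genes in coq2d and 6 in cox4d, all toward lower, against 12.2% and 10.3% of all genes. TIM10 led in both: the difference of its log2 change from that of wt was -1.64 in coq2d (SE 0.17, adjusted p = 1.09e-10) and -1.80 in cox4d (SE 0.17, adjusted p = 1.03e-11). Small TIMs made up 3 of the 9 in coq2d and 3 of the 6 in cox4d (TIM9, TIM10 and TIM12 in each). MIA40 was not called in cox4d without library a of wt at 0 h (-0.97), library b of cox4d at 0 h (-0.99) or library a of cox4d at 16 h (-0.92). Without library a of wt at 16 h the cox4d count was 10, and with median-ratio scaling the coq2d count was 4.

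In the suppressor deletions by themselves PAM16 was called lower in all 3 strains at 12 h. At 12 h ras2d had 4 import genes lower, all of the motor, against 11.9% of all genes lower: PAM16 (-1.64 ± 0.11, adjusted p = 9.63e-17), MGE1, the nucleotide exchange factor of SSC1 (-1.19), SSC1 (-1.17) and TIM44, which tethers SSC1 to the channel (-1.04). PAM16 had 41.1 and 47.5 TPM in ras2d, against 138 and 142 TPM in wt, with no overlap. TIM44 missed the 2-fold minimum in ras2d without library b of wt (-0.94). In rts1d 12 import genes (36.4%) were lower at 12 h, against 14.2% of all genes lower. They were 5 of 6 motor genes (PAM16, TIM44, MGE1, SSC1 and PAM18), 3 of 8 TOM genes (TOM22, TOM70 and TOM6), TIM22, TIM50, MIA40 and HSP10. The largest changes there were of PAM16 (-1.50 ± 0.11, adjusted p = 1.94e-15), TIM44 (-1.41 ± 0.12, adjusted p = 4.28e-14) and TOM22, the central receptor of the TOM complex (-1.37 ± 0.10, adjusted p = 3.01e-16). The calls in rts1d were lost for TIM50 (-0.97) and PAM18 (-0.82) without library a of rts1d, for HSP10 without library b of rts1d (-0.89) and for TIM22 without library b of wt (-0.99). The median of the 33 was -0.84 in rts1d, where all genes had -0.28, and -0.48 in ras2d, where all genes had -0.14. With median-ratio scaling PAM16 alone was called in ras2d, and PAM16, TIM44 and TOM22 in rts1d. In tco89d TOM6 (-1.03 ± 0.10, adjusted p = 5.92e-12) and PAM16 (-1.01 ± 0.11, adjusted p = 2.04e-10) were lower at 12 h, against 4.89% of all genes lower, close to the threshold: without library a of tco89d neither was called, and without library b of wt TOM6 alone was. With median-ratio scaling 4 import genes were called in tco89d, HSP10 and TOM7 besides these. The median of the 33 was -0.28 in tco89d, where all genes had 0.18. On the median-ratio scale these medians were -0.43 and 0.05, and 29 import genes were below 0 and 4 above.

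At 16 h rts1d had 2 import genes higher and 1 lower, against 11.1% of all genes called. TIM18 had 89.7 and 74.9 TPM in rts1d, against 27.1 and 26.7 TPM in wt (log2 change 1.57 ± 0.16, adjusted p = 9.12e-11). TOM40, the pore, had 306 and 315 TPM in rts1d, against 124 and 110.2 TPM in wt (1.40 ± 0.11, adjusted p = 1.16e-14). Both genes were far above wt in each rts1d library. SAM35 was lower (-1.12 ± 0.10, adjusted p = 2.36e-12), but fell short of 2-fold without library b of rts1d (-0.99). In ras2d at 16 h MIA40 (-1.22 ± 0.10, adjusted p = 6.56e-14), TIM44 (-1.06 ± 0.12, adjusted p = 1.71e-10) and PAM16 (-1.05 ± 0.11, adjusted p = 6.37e-11) were lower, against 7.75% of all genes lower, and MIA40 alone was called without library a of ras2d. In tco89d at 16 h PAM16 (-1.06 ± 0.11, adjusted p = 7.86e-11), TIM17, the partner of TIM23 in the channel (-1.03 ± 0.09, adjusted p = 5.75e-13), and TOM6 (-1.02 ± 0.10, adjusted p = 1.10e-11) were lower, against 4.41% of all genes lower. All 3 were within 0.1 of the 2-fold minimum, and each fell short of it without 1 library: PAM16 and TIM17 without library b of tco89d, TIM17 without library a of wt, and TOM6 without library a of tco89d or library b of wt. With median-ratio scaling TIM44, PAM18 and TIM23 were called there as well. The median of the 33 at 16 h was -0.36 in tco89d, -0.29 in ras2d and 0.02 in rts1d. All genes had 0.17, -0.03 and 0.13 in that order. On the median-ratio scale the 33 had -0.51 in tco89d, with 31 below 0 and 2 above. At 0 h limma called 0 import genes in each suppressor strain, where 4.84% of all genes were called in ras2d, 2.69% in rts1d and 1.61% in tco89d. In that order 14, 10 and 11 import genes had an unadjusted p under 0.05, as did 2628, 2391 and 1162 of all 5766 genes. Without library a of wt 1 import gene was called higher in tco89d.

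In the double mutants at 16 h the import genes called higher included some that were called lower in the ETC single mutant and others, such as TIM18 and TOM40, that were not called there. Both were still below wt in the single mutants, short of 2-fold. TIM18 had means of 19.2 TPM in coq2d and 16.5 TPM in cox4d, against 26.9 TPM in wt. TOM40 had 79.7 TPM in coq2d and 76.4 TPM in cox4d, against 117 TPM in wt. HSP10 was called lower in 4 of the 6 double mutants. Its mean was also lower, short of 2-fold, in coq2d ras2d (2104 TPM, against 3631 TPM in coq2d) and in cox4d tco89d (1903 TPM, against 3699 TPM in cox4d, log2 change -0.96). The suppressor deletions by themselves also had HSP10 means below wt at 16 h, short of 2-fold. These were 1643 TPM in ras2d, 1611 TPM in rts1d and 1573 TPM in tco89d, against 2418 TPM in wt. Each double mutant was compared with its own ETC single mutant. In coq2d ras2d 8 import genes (24.2%) rose and 0 fell, against 19.1% of all genes higher: TIM10, TIM18, TOM20, ERV1, PAM18, TIM9, TOM7 and PAM17. TIM10 had 341 and 357 TPM in coq2d ras2d, against 98.3 and 95.2 TPM in coq2d (log2 change 1.84 ± 0.12, adjusted p = 1.32e-17), above the wt libraries at 16 h as well. TIM18 had 59.5 and 57.4 TPM in coq2d ras2d, against 21.1 and 17.3 TPM in coq2d (1.56 ± 0.16, adjusted p = 3.70e-11). TOM20 had 175 and 164 TPM in coq2d ras2d, against 68.6 and 62.3 TPM in coq2d (1.36 ± 0.10, adjusted p = 8.75e-16). Double and single mutant libraries were well apart for all 3 genes. ERV1 had 89.4 and 96.5 TPM in coq2d ras2d, against 38.6 and 33.9 TPM in coq2d (1.34 ± 0.11, adjusted p = 1.46e-14). PAM18 had 37.1 and 41.6 TPM in coq2d ras2d, against 17.6 and 17.7 TPM in coq2d (1.12 ± 0.12, adjusted p = 5.11e-11). Neither gene overlapped between the strains. MIA40, low in coq2d, had 0.17 ± 0.10, adjusted p = 0.121 and was not called. PAM16, TIM12, TIM13 and TIM50, also called lower in coq2d than in wt, were not called here either. The mean of PAM16 was 67.0 TPM in coq2d ras2d and 67.3 TPM in coq2d. With median-ratio scaling TIM10 (1.49), TIM18 (1.22) and TOM20 (1.01) were called higher and HSP60 (-1.25) and HSP10 (-1.14) lower, and on the deposited scale 5 genes were called without library b of coq2d, where TIM9 (0.85), TOM7 (0.98) and PAM17 (0.99) fell short of 2-fold.

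In coq2d rts1d 4 import genes rose and 1 fell (15.2%), against 13.9% of all genes called. TIM18 had 83.4 and 61.5 TPM in coq2d rts1d, against 21.1 and 17.3 TPM in coq2d (log2 change 1.85 ± 0.16, adjusted p = 6.76e-13). TOM40 had 229 and 204 TPM in coq2d rts1d, against 85.0 and 74.4 TPM in coq2d (1.43 ± 0.11, adjusted p = 3.05e-15). TIM17 had 852 and 672 TPM in coq2d rts1d, against 301 and 335 TPM in coq2d (1.25 ± 0.09, adjusted p = 1.80e-15). TOM40 and TIM17 belong to the channels of TOM and TIM23, TIM18 to TIM22, and the coq2d rts1d libraries of each lay above both coq2d libraries. MIA40 had 103 and 121 TPM in coq2d rts1d, against 53.2 and 51.9 TPM in coq2d (1.07 ± 0.10, adjusted p = 3.64e-12); without library b of coq2d rts1d it was at 0.95. Of the genes called lower in coq2d than in wt, MIA40 alone was called higher here. PAM16 was just short of 2-fold (0.996), and the mean of PAM18 was 16.8 TPM in coq2d rts1d and 17.6 TPM in coq2d. HSP10 had 1225 and 1490 TPM in coq2d rts1d, against 3678 and 3585 TPM in coq2d (-1.43 ± 0.09, adjusted p = 8.77e-17), the 1 import gene called lower; 11 of the 33 had a negative change and 5 were lower by adjusted p alone. With median-ratio scaling HSP10, TIM18, TOM40 and TIM17 remained called, MIA40 was not and SAM35 was called lower.

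In coq2d tco89d 3 import genes rose and 1 fell (12.1%), against 19.6% of all genes called. MIA40 had 135 and 130.4 TPM in coq2d tco89d, against 53.2 and 51.9 TPM in coq2d (log2 change 1.32 ± 0.10, adjusted p = 6.07e-15). TIM10 had 198 and 257 TPM in coq2d tco89d, against 98.3 and 95.2 TPM in coq2d (1.21 ± 0.12, adjusted p = 5.15e-12). ERV1 had 81.5 and 76.9 TPM in coq2d tco89d, against 38.6 and 33.9 TPM in coq2d (1.11 ± 0.11, adjusted p = 4.72e-12). All 3 had been lower in coq2d than in wt, and none overlapped between these strains. The other genes called lower in coq2d than in wt were not called here. HSP10 had 1643 and 1656 TPM in coq2d tco89d, against 3678 and 3585 TPM in coq2d (-1.14 ± 0.09, adjusted p = 5.03e-14). All genes had a median of 0.40 in this comparison and the import genes 0.29. With median-ratio scaling, which lies 0.46 below the deposited scale here, the median of the import genes was -0.17, 0 import genes were called higher, and HSP10, HSP60, TIM17 and TOM6 lower.

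In cox4d ras2d 5 import genes rose and 2 fell (21.2%), against 17.9% of all genes called. TOM7, the small subunit that acts in TOM assembly, had 427 and 483 TPM in cox4d ras2d, against 127 and 119 TPM in cox4d (log2 change 1.88 ± 0.15, adjusted p = 3.52e-14). TIM18 had 46.0 and 59.3 TPM in cox4d ras2d, against 16.6 and 16.3 TPM in cox4d (1.61 ± 0.16, adjusted p = 2.63e-11). TIM10 had 256 and 271 TPM in cox4d ras2d, against 96.7 and 97.6 TPM in cox4d (1.43 ± 0.12, adjusted p = 5.31e-14). For each of these the double mutant libraries were more than 2-fold above the cox4d libraries. HSP10 had 1285 and 1156 TPM in cox4d ras2d, against 3631 and 3767 TPM in cox4d (-1.60 ± 0.09, adjusted p = 1.68e-18). HSP60 had 152 and 159.6 TPM in cox4d ras2d, against 491 and 409 TPM in cox4d (-1.52 ± 0.09, adjusted p = 1.54e-17). Both chaperonin genes were also below every wt library at 16 h. TIM8 (1.13 ± 0.15, adjusted p = 2.67e-08) and TOM40 (1.06 ± 0.11, adjusted p = 1.31e-11) were the other genes called higher; TOM40 was not called with median-ratio scaling, and without library b of cox4d ras2d neither TIM8 (0.99) nor TOM40 (0.94) was.

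The single cox4d rts1d library at 16 h had 5 import genes higher and 1 lower (18.2%), against 16.4% of all genes called; it has no replicate, and the fit assumes that it varies like the other groups. TIM18 had 79.2 TPM in cox4d rts1d, against 16.6 and 16.3 TPM in cox4d (log2 change 2.199 ± 0.20, adjusted p = 2.57e-12). TOM40 had 235 TPM in cox4d rts1d, against 77.6 and 75.2 TPM in cox4d (1.61 ± 0.13, adjusted p = 5.87e-14). TIM17 had 840 TPM in cox4d rts1d, against 296 and 298 TPM in cox4d (1.49 ± 0.11, adjusted p = 5.60e-15). All 3 were above both cox4d libraries by 2-fold or more. TOM20 had 198 TPM in cox4d rts1d, against 85.3 and 82.5 TPM in cox4d (1.23 ± 0.12, adjusted p = 1.90e-11). HSP10 had 1290 TPM in cox4d rts1d, against 3631 and 3767 TPM in cox4d (-1.52 ± 0.11, adjusted p = 8.47e-15). PAM16 was the fifth gene called higher (1.04 ± 0.14, adjusted p = 1.82e-08) and was not called with median-ratio scaling or without library a of cox4d (0.96).

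In cox4d tco89d at 16 h TOM7 alone was called (3.03%), against 3.24% of all genes higher, with 293 and 303 TPM in cox4d tco89d, against 127 and 119 TPM in cox4d (1.27 ± 0.15, adjusted p = 2.17e-09). Both libraries were more than 2-fold above cox4d. Without library a of cox4d tco89d, which held COX4 at 72.3 TPM, TOM7 had 1.29 and 2 import genes were called, 1 higher and 1 lower. TIM10, called higher in cox4d ras2d, had 117 and 143 TPM in cox4d tco89d (change against cox4d 0.41 ± 0.12, adjusted p = 0.00295).

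**Figure D4:**
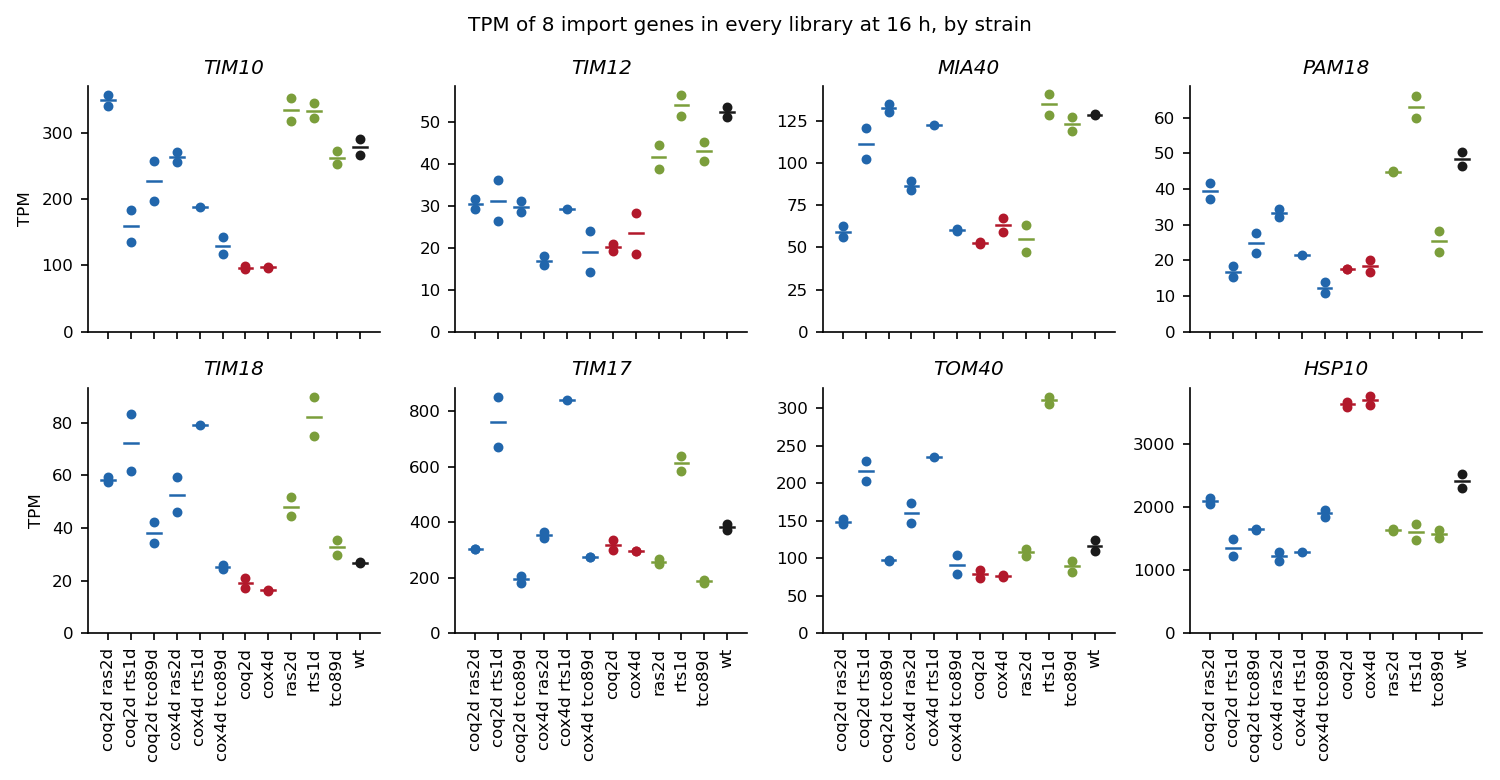
Points are the TPM of 8 import genes in every library at 16 h and bars are group means, with double mutants in blue, coq2d and cox4d in red, suppressor single mutants in green and wt in black; each axis starts at 0. TIM10 is at 95.2 to 98.3 TPM in coq2d and cox4d and at 267 and 291 TPM in wt, TIM18, TIM17 and TOM40 are highest in strains that lack RTS1, and HSP10 is highest in coq2d and cox4d.

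**Figure D5:**
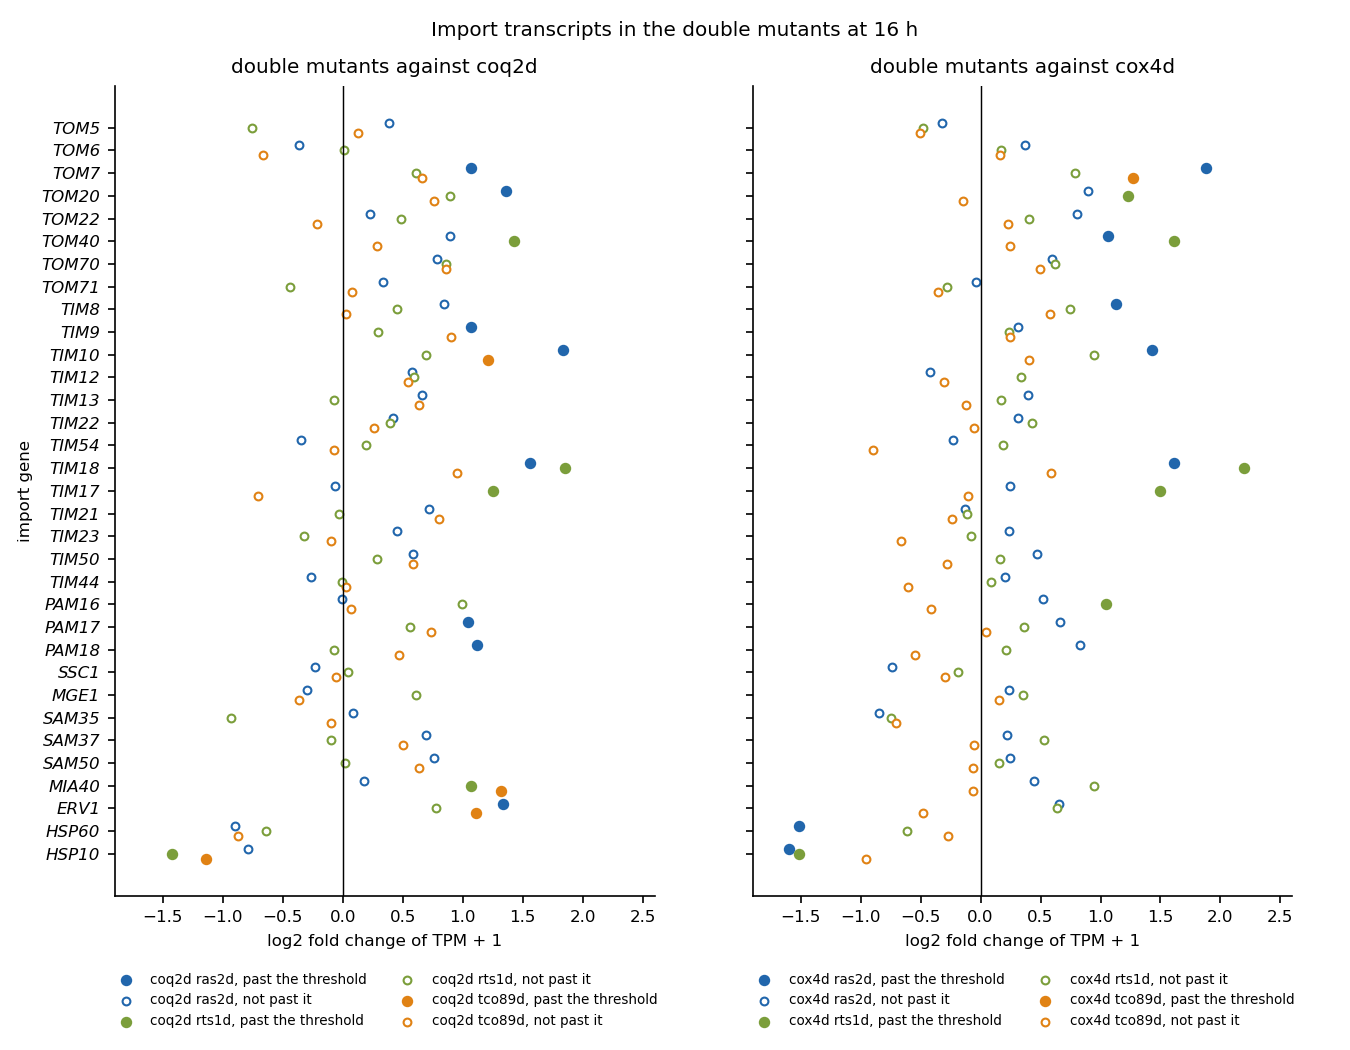
Points are the log2 fold change of TPM + 1 of each import gene at 16 h in the ras2d (blue), rts1d (green) and tco89d (orange) double mutants against coq2d (left) or cox4d (right), filled where the threshold was passed. Most filled points lie right of 0, and HSP10, with HSP60 in cox4d ras2d, gives the filled points left of 0.

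At 12 h HSP10 was called lower in 5 of the 6 double mutants against their ETC single mutant. It had 1604 and 1631 TPM in coq2d ras2d, 1337 and 1169 TPM in coq2d rts1d and 1580 and 1555 TPM in coq2d tco89d, against 3554 and 4387 TPM in coq2d. It had 1915 and 1809 TPM in cox4d ras2d, 1308 and 1056 TPM in cox4d rts1d and 1863 and 1769 TPM in cox4d tco89d, against 3535 and 3729 TPM in cox4d. No double mutant library reached a single mutant library in either family. The log2 changes were -1.29 ± 0.09, adjusted p = 7.33e-16 for coq2d ras2d, -1.66 ± 0.09, adjusted p = 4.46e-19 for coq2d rts1d, -1.33 ± 0.09, adjusted p = 3.75e-16 for coq2d tco89d, -1.63 ± 0.09, adjusted p = 7.63e-19 for cox4d rts1d and -1 ± 0.09, adjusted p = 7.30e-12 for cox4d tco89d; cox4d ras2d had -0.96 ± 0.09, adjusted p = 5.80e-12, under 2-fold. The cox4d tco89d call was lost with median-ratio scaling, and without library b of cox4d tco89d or library b of cox4d (-0.96 in both cases).

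The calls at 12 h were otherwise few in the ras2d and tco89d double mutants and mostly toward lower in the rts1d ones. TIM12 rose in coq2d ras2d (1.24 ± 0.17, adjusted p = 3.62e-08) and in coq2d tco89d (1.41 ± 0.17, adjusted p = 1.85e-09), so that 2 import genes were called in each, against 21.8% and 24.2% of all genes. Without library b of coq2d 4 were called in coq2d ras2d, and with median-ratio scaling SSC1 joined HSP10 as lower there, while 4, all lower, were called in coq2d tco89d (HSP10, TOM7, TIM8 and TOM6). In coq2d rts1d 6 fell, against 8% of all genes lower: HSP10, TOM6 (-1.30 ± 0.10, adjusted p = 6.13e-15), TIM44 (-1.13 ± 0.12, adjusted p = 3.21e-11), TOM7, TOM22 and TIM22. TIM44 was at -0.87 without library a of coq2d rts1d, TOM7 at -0.90 and TIM22 at -0.98 without library b, and TIM22 at -0.92 without library a of coq2d; with median-ratio scaling 3 genes were called lower (HSP10, TOM6 and TIM44) and TIM12 higher. In cox4d rts1d 7 fell, against 12.2% of all genes lower: HSP10, TIM44 (-1.31 ± 0.12, adjusted p = 4.61e-13), TIM50 (-1.25 ± 0.11, adjusted p = 4.68e-13), SSC1, MIA40, PAM16 and TIM22. That count was 11 without library a of cox4d rts1d and 1, HSP10, with median-ratio scaling, and without library b of cox4d rts1d PAM16 (-0.99) and TIM22 (-0.80) were not called. In cox4d ras2d MIA40 (-1.14 ± 0.10, adjusted p = 4.97e-13) and SSC1 (-1.07 ± 0.08, adjusted p = 5.31e-16) fell, against 7.32% of all genes lower. HSP10 was the 1 import gene called in cox4d tco89d, against 4.23% of all genes lower.

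Subunits that work as partners varied in their ratio. TIM23 and TIM17 form one channel, and the ratio of their TPM in wt was 0.964 ± 0.0653 at 0 h, 0.366 ± 0.0175 at 12 h and 0.343 ± 0.0158 at 16 h (mean ± SD, n = 2 each). In coq2d rts1d at 16 h it was 0.103 ± 0.00127, with 0.139 ± 0.00106 in rts1d and 0.129 in the single cox4d rts1d library. PAM16 and PAM18 bind each other, and their ratio in wt was 1.07 ± 0.0955 at 0 h, 2.96 ± 0.0594 at 12 h and 3.36 ± 0.333 at 16 h, with 8.09 ± 0.549 in coq2d rts1d at 16 h. TIM9 and TIM10 stayed closer, at 0.612 ± 0.0844, 0.789 ± 0.0626 and 0.895 ± 0.0350 in wt at the 3 times. Over all groups their ratio ran from 0.528 ± 0.0402 in cox4d ras2d to 1.15 ± 0.102 in cox4d, both at 16 h. Ratios between genes of one library do not depend on how libraries are scaled.

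Over the 36 group means the 528 pairs of import genes had a median Pearson r of log2 level of 0.48, within a range of -0.69 to 0.95. The points share the 12 strains and 3 times, and the values are a description. Pairs of other genes were not computed, so whether these correlations are unusual was not tested. The small TIMs and the SAM genes had the highest medians of the role groups. The small TIMs had 0.83 over their 10 pairs, within a range of 0.335 to 0.95, and the 3 SAM genes had 0.83, within 0.74 to 0.87. TIM10 went with PAM18 (0.95), TIM9 (0.95) and TOM71 (0.89), and ran against HSP10 (-0.65). The lowest pair was TOM20 with HSP10 (-0.69). Over all 32 comparisons HSP10 was called most often, higher in 2 and lower in 10, followed by PAM16, higher in 1 and lower in 10, and MIA40, higher in 2 and lower in 8. TIM18 and TOM40 were called higher in 5 and 4 comparisons and lower in 0. SAM37, SAM50, TIM21 and TIM54 were called in none of the 32. The same tallies were not made over all genes, so whether these counts are unusual was not tested. The comparisons share libraries and are not independent.

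Other genes of the import pathway were counted in 3 lists. Of 10 cytosolic factors that keep precursors unfolded, 2 rose and 6 fell in wt between 0 and 16 h, where 17.7% of all genes rose and 28.9% fell. SSB1, a ribosome-bound Hsp70, had 91.2 and 82.6 TPM at 16 h, against 968 and 992 TPM at 0 h (log2 change -3.48 ± 0.19, adjusted p = 9.26e-21). SSA2, a cytosolic Hsp70, had 124 and 122 TPM at 16 h, against 1182 and 1227 TPM at 0 h (-3.28 ± 0.14, adjusted p = 1.73e-24), whereas its paralog SSA1 rose (1.101 ± 0.08, adjusted p = 1.52e-16). SSA1 and SSA2, like SSB1 and SSB2, are close paralogs, so the split of reads between them is uncertain. Of 14 accessory factors 4 rose in wt and 1 fell, and so did 17.7% and 28.9% of all genes. OM14, an outer membrane protein that receives ribosomes, had 1630 and 1701 TPM at 16 h, against 156 and 170.5 TPM at 0 h (3.34 ± 0.09, adjusted p = 1.68e-32). HSP78, a matrix disaggregase that backs SSC1, rose (2.15 ± 0.10, adjusted p = 5.87e-23). Of 7 presequence-processing genes tested 1, IMP2, of the inner membrane peptidase, rose (1.33 ± 0.12, adjusted p = 2.82e-13) and 0 fell, against the same shares of all genes.

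In the ETC mutants at 16 h the accessory list held the largest changes. OM14 had 309 and 318 TPM in coq2d and 388 and 369 TPM in cox4d, against 1630 and 1701 TPM in wt (log2 change -2.41 ± 0.09, adjusted p = 1.08e-25 in coq2d, and -2.13 ± 0.09, adjusted p = 8.25e-24 in cox4d). MBA1, a ribosome receptor of the inner membrane, had 9.37 and 9.54 TPM in coq2d and 11.6 and 9.65 TPM in cox4d, against 42.4 and 38.2 TPM in wt (-1.98 ± 0.17, adjusted p = 2.51e-13 in coq2d, and -1.83 ± 0.17, adjusted p = 2.82e-12 in cox4d). Both were far below wt in all 4 mutant libraries. ZIM17, which keeps SSC1 soluble, was the third of 14 called lower, close to the 2-fold minimum, at -1.01 in coq2d and -1.07 in cox4d, and was not called without library b of wt (-0.93 and -0.99) or, in coq2d, without library b of coq2d (-0.90). Of all genes 12.3% were called lower in coq2d and 9.52% in cox4d. None of the 7 processing genes and none of the 10 cytosolic factors was called in either strain. In the double mutants OM14 was higher than in the ETC single mutant in coq2d ras2d (1.90), coq2d rts1d (1.25), coq2d tco89d (1.94), cox4d ras2d (1.51) and cox4d rts1d (1.17), and had 0.87 ± 0.09, adjusted p = 1.83e-11 in cox4d tco89d.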

How the data were processed

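The deposited table gives TPM (transcripts per 1000000) for 5803 genes in 71 libraries; it was deposited a second time in identical form and used once. Per the labels' protocols the libraries were poly(A), stranded and depleted of rRNA, and per the submitters' processing notes Salmon 0.9.1 and bcl2fastq 2.20.0.422 were used with the sacCer3 genome; their roles are not given in the sources used here. Each library has the same sum and a floor of 0.1 TPM, which takes 0.969% of values. Depth is unknown, so no counting interval is given.

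The filter kept a gene that reached 1 TPM in 2 or more libraries (5766 genes, with 37 left out). limma 3.58.1 in R 4.3.3 was fitted to log2(TPM + 1), which understates changes of low genes, with 1 mean for each of 36 groups, a trend in the variance and 35 residual degrees of freedom shared by all groups. The 32 comparisons were adjusted by Benjamini-Hochberg within each comparison, and a call needs an adjusted p under 0.05 and a change of at least 2-fold. The fit was also run on simulated data, with independent normal noise at the fitted spread and changes planted in coq2d against wt at 16 h. That setting holds no error shared by replicates and no shift of the TPM scale, so it cannot test for either. Python 3.11.15, pandas 2.3.3 and Biopython 1.88 read the RefSeq R64 sequence, and blastn 2.17.0 searched for copies.

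All 33 import genes are accounted for by role group. Values in every library are printed for wt at 16 h against 0 h, the ETC mutants against wt at 16 h and the double mutants at 16 h, for up to 5 called genes with the largest change, any called gene that moved against most others and, in wt, the gene of each role group with the largest change; elsewhere up to 3 called genes are named with their values. HSP10, HSP60, OM14 and a few genes given as contrast were named after their values were seen. The members and lists were chosen with earlier results of these data known. OCT1, of the presequence-processing list, was not analysed here. The alternatives tried were no minimum fold, pseudocounts of 0.1 and 5, no filter, a filter at a mean of 10 TPM, median-ratio scaling, a fit to the libraries of the compared time or of the compared strains alone, and leaving out each library in turn.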

Additional observations from a re-analysis of the deposited data

Results flagged for a closer look

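For 15 results the change between 0 and 16 h differed between an ETC mutant and wt by a test of the difference itself, the interaction of strain and time in limma. A value is the log2 change in the mutant minus the log2 change in wt. In coq2d, 9 import genes had a more negative change than in wt: TIM10 (-1.64, adjusted p = 1.09e-10), TIM12 (-1.48, adjusted p = 3.13e-06), TIM9 (-1.41, adjusted p = 1.96e-08), PAM18 (-1.40, adjusted p = 6.51e-09), PAM16 (-1.35, adjusted p = 2.86e-09), MIA40 (-1.30, adjusted p = 8.15e-10), ERV1 (-1.28, adjusted p = 4.08e-09), TIM50 (-1.17, adjusted p = 6.35e-08) and TOM20 (-1.10, adjusted p = 2.16e-08). In cox4d, 6 did: TIM10 (-1.80, adjusted p = 1.03e-11), TIM9 (-1.56, adjusted p = 2.37e-09), PAM18 (-1.54, adjusted p = 8.59e-10), PAM16 (-1.41, adjusted p = 1.26e-09), TIM12 (-1.30, adjusted p = 2.73e-05) and MIA40 (-1.01, adjusted p = 1.95e-07). Both sets of differences use the same wt libraries at both times. TIM10 had 615 and 560.4 TPM at 0 h and 98.3 and 95.2 TPM at 16 h in coq2d, 684 and 636 TPM and 96.7 and 97.6 TPM in cox4d, and 579.9 and 503 TPM and 267 and 291 TPM in wt. The strains were near each other at 0 h, and the mutant libraries were far below wt at 16 h. CUP1-1 held 18.6% of TPM in coq2d and 19.98% in cox4d at 16 h, against 5.72% in wt, and its part in these differences was not tested. On the median-ratio scale TIM10, TIM9, TIM12 and PAM18 were called in both strains, and PAM16 in cox4d.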

How the results depend on the processing

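No count of called import genes moved with a pseudocount of 0.1, no filter, a filter at a mean of 10 TPM or a fit to a subset of libraries, where moving means by over 1.5 times. That subset held all libraries of the compared time, or all libraries of the compared strains. Without the 2-fold minimum, at an adjusted p under 0.05 alone, more import genes passed, and the share of all genes that did so follows each count in brackets. There were 24 (80.6%) and 26 (81.2%) in wt at 12 and 16 h against 0 h, 21 (51.5%) and 30 (65.4%) in coq2d at 12 and 16 h, and 3 (7.28%), 18 (40.7%) and 31 (62.4%) in cox4d, 12 (37.4%), 25 (61.2%) and 18 (61.1%) in ras2d, 7 (31.1%), 27 (65.3%) and 19 (58%) in rts1d and 4 (10.5%), 18 (59.4%) and 19 (58.2%) in tco89d at 0, 12 and 16 h. The double mutants at 12 and 16 h had 23 (68.4%) and 29 (71.7%) in coq2d ras2d, 25 (62.3%) and 23 (60.7%) in coq2d rts1d, 18 (70.6%) and 23 (69%) in coq2d tco89d, 22 (62.8%) and 28 (65.5%) in cox4d ras2d, 27 (65%) and 20 (54.7%) in cox4d rts1d and 17 (48.7%) and 20 (59.3%) in cox4d tco89d. coq2d against cox4d at 16 h had 3 (6.31%), and the differences of change between mutant and wt were 26 (49.4%) in coq2d and 27 (47.9%) in cox4d.

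With median-ratio scaling the counts were 1 and 3 in coq2d at 12 and 16 h, 2 in cox4d at 16 h, 1 in ras2d and 3 in rts1d at 12 h, 4 and 6 in tco89d at 12 and 16 h, 5 in coq2d ras2d at 16 h, 4 in coq2d tco89d, 1 in cox4d rts1d and 0 in cox4d tco89d at 12 h, and 4 for the difference of change in coq2d. No change of an import gene that was called on either scale had the opposite sign on the other, but 151 of all 1056 changes did, and the median of the 33 turned in 8 of 32 comparisons: to 0.04 on the median-ratio scale, against -0.23 on the deposited one, in wt at 12 h, 0.005 against -0.09 in ras2d and 0.12 against -0.04 in rts1d at 0 h, -0.09 against 0.02 in rts1d at 16 h, -0.30 against 0.16 and -0.17 against 0.29 in coq2d tco89d at 12 and 16 h, 0.17 against -0.12 in cox4d tco89d at 16 h and 0.05 against -0.06 between coq2d and cox4d at 16 h. A pseudocount of 5 gave 1 in coq2d and 1 in tco89d at 12 h and 0 in cox4d tco89d at 12 h. Leaving out each library in turn gave 3 to 6 called genes in wt at 16 h, 1 to 3 in coq2d and 0 to 1 in cox4d at 12 h, 1 to 3 in ras2d at 16 h, 0 to 1 and 0 to 2 in tco89d at 0 and 12 h, 2 to 4 and 5 to 8 in coq2d ras2d at 12 and 16 h, 5 to 11 in cox4d rts1d at 12 h, 0 to 1 and 1 to 2 in cox4d tco89d at 12 and 16 h, and 5 to 10 for the difference of change in cox4d. The cause of these moves was not tested. No paired analysis was possible because the columns of the table carry no replicate number. TPM keep no depth, so the counting error of low genes such as TOM71 and PAM18 is unknown.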

Other observations

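Genes next to the import machinery differed in strains that lack RAS2 or RTS1 at 16 h. SSB1, a ribosome-bound Hsp70 that meets precursors as they are made, had 288 and 287 TPM in ras2d and 379.5 and 398 TPM in rts1d, against 91.2 and 82.6 TPM in wt (log2 change 1.72 ± 0.19, adjusted p = 1.71e-10 in ras2d, and 2.15 ± 0.19, adjusted p = 7.99e-13 in rts1d). Its near-identical paralog SSB2 was also called higher in both (1.69 and 1.69), and reads of these genes may be split between them. In the double mutants against the ETC single mutant SSB1 was higher in coq2d ras2d (2.42), coq2d rts1d (1.03), cox4d ras2d (1.91) and cox4d rts1d (1.48). It had 0.75 in coq2d tco89d and 0.48 in cox4d tco89d, not called. Without library b of coq2d or of coq2d rts1d it was at 0.98 and 0.97 in coq2d rts1d, under 2-fold.

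MIM2, which with MIM1 inserts helical proteins into the outer membrane, was called lower in the same 4 double mutants. It had 40.9 and 44.3 TPM in coq2d ras2d and 57.1 and 73.8 TPM in coq2d rts1d, against 163 and 182 TPM in coq2d at 16 h (-1.99 ± 0.16, adjusted p = 7.79e-15 in coq2d ras2d, and -1.39 ± 0.16, adjusted p = 3.60e-10 in coq2d rts1d). It had 39.0 and 37.3 TPM in cox4d ras2d and 68.5 TPM in cox4d rts1d, against 166 and 183 TPM in cox4d (-2.16 ± 0.16, adjusted p = 1.24e-15 in cox4d ras2d, and -1.34 ± 0.19, adjusted p = 1.32e-07 in cox4d rts1d). In wt at 16 h it had 91.0 and 102 TPM, below the ETC single mutants and above these 4 double mutants. MIM1 had 145.5 and 157.8 TPM in coq2d ras2d and 76.3 and 98.6 TPM in coq2d rts1d, against 169 and 170 TPM in coq2d. It had 152 and 146 TPM in cox4d ras2d and 83.4 TPM in cox4d rts1d, against 172 and 179 TPM in cox4d. The tco89d doubles also had lower values, just short of 2-fold: MIM2 had 77.7 and 100.9 TPM in coq2d tco89d (-0.95 ± 0.16, adjusted p = 1.00e-06) and 97.5 and 90.5 TPM in cox4d tco89d (-0.89 ± 0.16, adjusted p = 5.64e-06), and it was called in coq2d tco89d without library a of coq2d (-1.03) or library b of coq2d tco89d (-1.14). MDJ1, the J-protein of SSC1 in the folding of matrix proteins, was called lower in these strains too, with log2 changes of -1.02, -1.29, -1.75 and -1.86 in the same order; the coq2d ras2d call was lost without library a of coq2d (-0.97) or library b of coq2d ras2d (-0.999). It had -0.70 in coq2d tco89d and -0.50 in cox4d tco89d, under 2-fold. Doubles of one family share their ETC single mutant libraries, and cox4d rts1d is 1 library. These genes were chosen after their values were seen.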
